A study of Mus musculus with 3 samples.

Results

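Ser5-phosphorylated Pol_II was followed across the gene of the microRNA miR-155 and the extragenic sequence upstream of it in mouse macrophages. The region ran from 150 kb upstream to 50 kb downstream of the start of the Mir155 hairpin, chr16:84564385-84764384 of mm9, and was divided into 40 bins of 5 kb of 527787 in the genome (chromosomes 1 to 19 and X). It held 4 of the 53524 deposited Ser5 peaks of untreated cells and 36 of the 49438 of LPS-treated cells. The member genes were Mir155, Mrpl39, Jam2 and Gabpa, 4 of 37252 annotated genes, the last pair lying beyond the downstream edge. The locus was picked because a strongly induced cluster of Pol_II lies at chr16:84603601-84609205. The study drew that cluster from total Pol_II in cells given LPS together with gamma interferon, a treatment that differs from the LPS alone of the library used here. The higher Ser5 level after LPS is therefore given as a description and no test is attached to it.

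There were 3 libraries. All cells were macrophages grown from the bone marrow of female Fvb mice (Fvb/Hsd in the study's methods) and taken on day 7 of differentiation. One ChIP library was made from untreated cells and one from cells given 10 ng/ml LPS (lipopolysaccharide, the endotoxin of Gram-negative bacteria) for 2 h, both with antibody ab5131 against the Ser5-phosphorylated form of Pol_II. The third library was input DNA, total chromatin of untreated cells that was not immunoprecipitated. With 1 library per condition no difference has a replicate check. Intervals in parentheses are 95% exact intervals, which cover counting error only.

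The libraries held 7616771 tags (untreated Ser5), 6249819 tags (Ser5 after LPS) and 7533308 tags (input), and 50.1%, 53.7% and 4.55% of them lay in the peaks of either list. Levels are given as TPM, here tags per 1000000 tags of a library, and densities as TPM per kb. Ratios are LPS over untreated on this scale. Scaling instead to the tags outside the peaks raises Ser5 over input 1.91-fold for the untreated and 2.06-fold for the LPS library, so the order of Ser5 and input is given below under both where they differ little. The 8 macrophage markers had untreated Ser5 levels 2.67 to 116 times those of input. After LPS their levels were 0.613 (Itgam) to 84.8 (Cd14) times those of input. The 6 LPS-response genes that check the labels, Tnf and Il1b among them, had ratios of 6.17 to 396. Of the markers of other cells, the largest values over input in untreated cells were 3.12 (Lck) and 2.89 (Klf1), and the part of such cells in the values below was not tested.

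As background, miR-155 is cut from a long non-coding transcript, BIC, whose transcription in macrophages is switched on by Toll-like receptor signalling through NF-κB and AP-1. It restrains, among others, mRNAs of Socs1 and Inpp5d, which are brakes on cytokine and phosphoinositide signalling, and so it promotes inflammatory activation. Phosphorylation of Ser5 in the repeated tail of Pol_II is placed as transcription starts. It is densest at promoters and also occurs at active enhancers, where Pol_II makes non-coding transcripts. Mrpl39 encodes a protein of the mitochondrial ribosome. Jam2 encodes an adhesion molecule of endothelial junctions, and Gabpa encodes the DNA-binding subunit of an Ets-family transcription factor.

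The hairpin (ENSMUSG00000065397.1) lies at chr16:84714385-84714449 on the plus strand, within exon 2 (84714298 to 84715487) of the annotated 2-exon host transcript (ENSMUSG00000091875.1, chr16:84713268-84715487). The hairpin sequence of RefSeq matched mm9 at exactly this place. Its arms are shown because they are the product of the locus. The capitals mark both arms in the hairpin, and the seed, bases 2 to 8, in the mature sequences. No other mature mouse microRNA of the table shared either seed.
Mir155 hairpin: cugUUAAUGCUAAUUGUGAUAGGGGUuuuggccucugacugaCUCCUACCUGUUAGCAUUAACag
miR-155-5p: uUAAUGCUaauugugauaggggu
miR-155-3p: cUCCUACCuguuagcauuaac

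LPS peaks that lay within 1000 bp of each other were joined into runs, which gave 12 runs in the region, numbered in the order of the genome. Runs 1 to 7 lie far upstream, run 8 holds the hairpin, runs 9 to 11 lie within Mrpl39 and run 12 covers its start. The next sequences are 300 bases each, with most LPS tags (5′ ends moved 75 bp towards the fragment's middle), from the LPS peak richest in tags of the 4 richest runs, leaving out the run at the Mrpl39 start. They are plus-strand mm9 sequence. The capitals mark matches on either strand to a κB consensus, the AP-1 core TGANTCA, the PU.1-like core GAGGAA, the interferon response core (GAAA, any 2 bases, GAAA) and, chosen after the sequences were seen, TATAAA. A match is a description of the letters and not of a bound factor.
Run 1, chr16:84585137-84585436: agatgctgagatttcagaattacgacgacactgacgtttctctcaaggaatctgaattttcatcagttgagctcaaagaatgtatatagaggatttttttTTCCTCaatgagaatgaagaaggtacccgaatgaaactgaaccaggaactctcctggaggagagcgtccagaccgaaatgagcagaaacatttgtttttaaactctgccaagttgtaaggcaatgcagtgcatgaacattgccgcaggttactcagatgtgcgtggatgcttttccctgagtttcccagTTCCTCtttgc
Run 3, chr16:84606832-84607131: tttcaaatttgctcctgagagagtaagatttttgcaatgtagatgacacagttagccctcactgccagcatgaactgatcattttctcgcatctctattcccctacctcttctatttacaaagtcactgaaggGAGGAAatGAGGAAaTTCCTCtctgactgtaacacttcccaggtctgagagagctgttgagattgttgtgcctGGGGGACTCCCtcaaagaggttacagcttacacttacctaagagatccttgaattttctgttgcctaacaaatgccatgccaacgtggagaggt
Run 6, chr16:84621503-84621802: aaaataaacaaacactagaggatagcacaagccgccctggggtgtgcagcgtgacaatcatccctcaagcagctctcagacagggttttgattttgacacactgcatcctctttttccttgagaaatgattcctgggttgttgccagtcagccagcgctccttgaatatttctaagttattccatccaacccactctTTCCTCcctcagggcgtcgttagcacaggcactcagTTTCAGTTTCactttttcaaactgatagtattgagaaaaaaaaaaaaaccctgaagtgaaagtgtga
Run 8, chr16:84703513-84703812: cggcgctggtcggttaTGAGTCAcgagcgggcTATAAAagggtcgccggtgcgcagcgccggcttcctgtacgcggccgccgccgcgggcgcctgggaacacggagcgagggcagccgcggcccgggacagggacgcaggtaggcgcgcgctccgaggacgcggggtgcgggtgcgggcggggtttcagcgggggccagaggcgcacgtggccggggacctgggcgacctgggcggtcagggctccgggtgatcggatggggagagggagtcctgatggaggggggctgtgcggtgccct
Annotated host promoter (RefSeq Mir155hg, matched to mm9), chr16:84713018-84713317: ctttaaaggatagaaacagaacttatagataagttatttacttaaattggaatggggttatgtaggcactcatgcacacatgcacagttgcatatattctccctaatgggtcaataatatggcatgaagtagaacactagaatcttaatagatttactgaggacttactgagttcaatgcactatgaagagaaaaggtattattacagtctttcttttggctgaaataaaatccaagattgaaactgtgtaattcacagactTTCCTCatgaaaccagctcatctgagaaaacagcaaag

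The run 8 stretch lies from −10.9 to −10.6 kb and had 6 untreated, 289 LPS and 1 input tags. It was 75% G and C, a content reached by 2.59% of 49367 such stretches over all LPS peaks, whose median was 51%. It held 1 AP-1 core (bases 17 to 23) and 1 TATAAA (bases 33 to 38), and 10.3% and 9.94% of the stretches of all LPS peaks held such a match. The run 3 stretch had 0 untreated, 24 LPS and 8 input tags and held 3 PU.1-like cores and 2 overlapping κB matches, 1 on each strand, at bases 207 to 217. A PU.1-like core was found in 29.9% and a κB match in 4.55% of all stretches. The run 1 stretch held 2 PU.1-like cores, and that of run 6 held 1, with 1 interferon response core, a motif of 3.83% of all stretches. Over all 36 LPS peaks of the region, 1 stretch held a κB match, 7 an AP-1 core, 8 a PU.1-like core, 3 an interferon response core and 8 TATAAA.

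The annotated promoter of the host was A and T rich, with 34.3% G and C, and had 0 untreated, 20 LPS and 0 input tags. It held 1 PU.1-like core, which 28.1% of 32534 RefSeq promoters of this length also held, and none of the other 4 motifs. As the stretch of run 8 was chosen for its LPS tags and the promoter is a fixed interval, their counts are not a comparison of like with like.

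Before treatment most of the region carried little Ser5. Beside the Mrpl39 start, untreated Ser5 exceeded input in the untreated peaks of runs 1 and 6 and just past the hairpin. The bin from the hairpin start to 5 kb downstream had 55 untreated and 22 input tags, 2.47 times input (1.48 to 4.26). After LPS most of the upstream bins of the region and the whole surroundings of the hairpin were higher. The 150 kb upstream of the hairpin held 205 untreated, 2600 LPS and 566 input tags, or 0.179, 2.77 and 0.501 TPM per kb. The ratio was 15.5 (13.4 to 17.9). The untreated level lay below that of input and the LPS level above it, with ratios to input of 0.358 (0.304 to 0.421) and 5.54 (5.05 to 6.07). Scaled to tags outside peaks they were 0.685 (0.581 to 0.805) and 11.4 (10.4 to 12.5). Most of the LPS tags lay in run 8. The upstream sequence outside run 8 had 165, 840 and 505 tags, a ratio of 6.2 (5.24 to 7.38). LPS there was 2 times input (1.79 to 2.24), and 4.13 times (3.69 to 4.62) scaled to tags outside peaks. The 50 kb downstream held 306, 1675 and 173 tags, a ratio of 6.67 (5.90 to 7.56).

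Of the 40 bins, 25 had at least 10 Ser5 tags over both libraries. In 22 of them (88%) the level was at least 2 times higher after LPS, in 0 at least 2 times lower, and 3 lay between. Over all bins of the genome with 10 tags, 13.6% were higher and 19.7% lower by this rule. Upstream, 18 of 19 such bins were higher, and the remaining one, from −35 to −30 kb, had 10 untreated and 8 LPS tags (0.975, 0.334 to 2.74). The median ratio over the 163738 bins of the genome was 0.894.

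**Figure D1:**
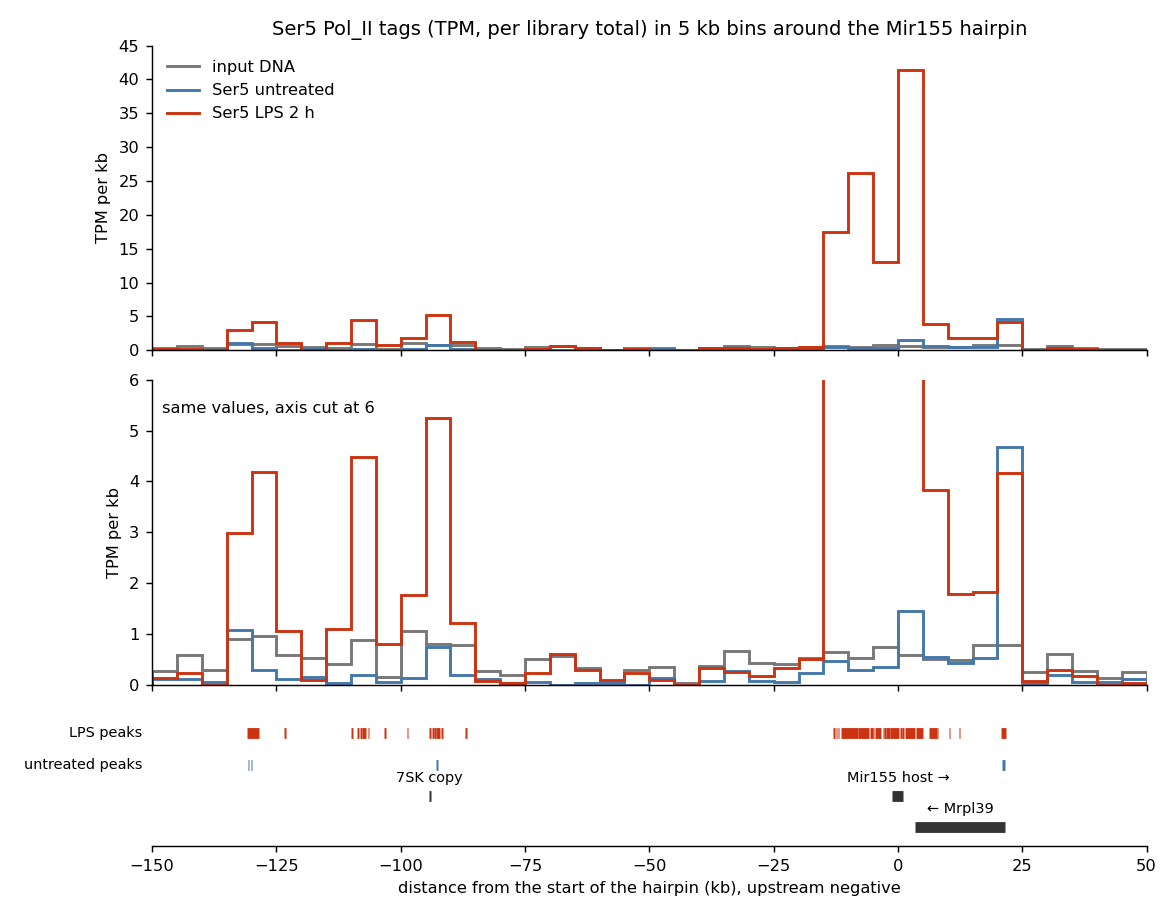
Ser5 and input TPM per kb (vertical axis) in 5 kb bins by distance from the hairpin start (horizontal axis, kb), on a full axis (top) and on the same axis cut at 6 (middle), with deposited peaks and genes below. After LPS the levels reach 41.4 at the hairpin and 5.25 in the upstream bins from −95 to −90 kb, while the bin at the Mrpl39 start is at 4.67 untreated and 4.16 after LPS.

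Among bins with 10 tags, and tags in both Ser5 libraries, the highest ratio was that of the bin from −10 to −5 kb, with 11 untreated, 818 LPS and 20 input tags, a ratio of 90.6 (50.4 to 182). Of 52867 bins of the genome with at least 50 Ser5 tags, 9 had a larger ratio. The bin from −115 to −110 kb came next with 1 untreated and 34 LPS tags, a ratio of 41.4 whose interval, from 6.95 to 1684, shows how little 1 tag fixes it. The bin from −5 to 0 kb had 13 and 407 tags (38.2, 22.1 to 72.3), and that from −15 to −10 kb had 18 and 548 (37.1, 23.3 to 63.1). In the bin from −70 to −65 kb, which holds no peak, the untreated library had 0 and the LPS library 19 tags. Against a floor of 3 tags in place of 0 it was at least 7.72-fold higher, with an exact lower limit of the ratio of 5.69, but the input had 21 tags there.

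The bin with most LPS tags, 1295, was that from the hairpin start to 5 kb downstream. It had 55 untreated tags, a ratio of 28.7 (21.9 to 38.3), and 113 bins of the genome had more LPS tags. In untreated cells the richest bin was that of the Mrpl39 start, from 20 to 25 kb, with 178 tags against 130 after LPS (0.890, 0.704 to 1.12). It was also the bin of lowest ratio among those with at least 10 tags. The third richest untreated bin, from −135 to −130 kb, had 41 tags and 93 after LPS (2.76, 1.89 to 4.10). The low end held, beside the bins at the Mrpl39 start and at −35 kb, the bin from 30 to 35 kb with 7 and 9 tags (1.57, 0.519 to 4.95) and that from −145 to −140 kb with 4 and 7 tags (2.13, 0.542 to 9.94). This last bin and that from −20 to −15 kb, with 9 and 16 tags (2.17, 0.902 to 5.56), passed the rule of size with intervals that include 1.

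**Figure D2:**
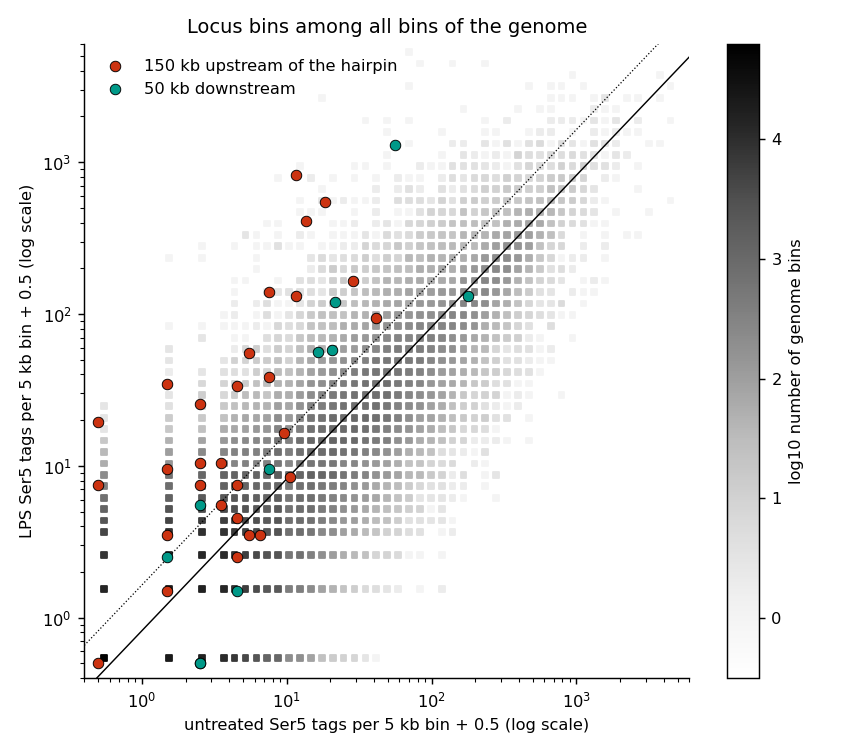
LPS tags (vertical) against untreated tags (horizontal) per 5 kb bin, both with 0.5 added and on log scales, for all bins of the genome (grey squares, darker for more bins) and the 40 bins of the region (circles). The solid line marks equal TPM and the dotted line a level 2 times higher after LPS, above which lie 22 of the 25 bins with at least 10 tags.

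In untreated cells 3 peaks lay upstream, at chr16:84583698 to 84584503 (a pair) and chr16:84621515-84621814, and the remaining one lay at the Mrpl39 start. They had scores from 53.0 to 1072 (minus 10 times the log10 of the MACS p-value) and covered 1489 bp. In LPS-treated cells 26 peaks lay upstream of the hairpin and 10 over or downstream of it, and together they covered 27353 bp, with a median length of 411 bp. Of 13183 windows of 200 kb over the genome, 1.90% held as many LPS peaks, whereas 25.2% held as many untreated peaks as were found here. An LPS peak was present in 15 of the 40 bins, against 5.59% of all bins of the genome, and an untreated peak in 4, against 6.25%.

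Run 8, which holds the hairpin, was by far the richest. It spans chr16:84701332-84719329, 17998 bp from −13.1 to 4.94 kb, joins 16 LPS peaks and overlaps 0 untreated ones. It had 95 untreated, 3055 LPS and 82 input tags, or 0.693, 27.2 and 0.605 TPM per kb. LPS exceeded untreated by a ratio of 39.2 (31.9 to 48.6). The untreated level was 1.15 times that of input (0.844 to 1.56), and 2.19 times (1.61 to 2.98) with scaling to tags outside peaks. The run took 71.5% of the LPS tags of the region and 18.6% of the untreated ones. Of 27023 runs of LPS peaks in the genome 172 were longer and 90 had more LPS tags. Among the 425 runs of at least 10000 bp, whose median ratio was 2.31, 5 had a larger ratio. Tags came from both strands, 1593 plus and 1462 minus, as ChIP does not tell the direction of transcription.

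The profile within run 8 was not even. The first 2053 bp had 9 untreated and 108 LPS tags, 8.42 TPM per kb after LPS. The next 500 bp, from −11 to −10.5 kb, had 7 and 347 tags and the highest density of the run, 111 after LPS, with a ratio of 60.4 (29 to 151). The printed G and C rich stretch with TATAAA lies in these 500 bp. From −10.5 to −5 kb the density after LPS was 26.1, with 11 and 898 tags and a ratio of 99.5 (55.3 to 200). It was 13 from −5 to 1.5 kb, the part that holds the annotated host and the hairpin, with 22 and 530 tags (29.4, 19.2 to 47.3). From 1.5 kb to the end of the run it was 54.4, with 46 and 1172 tags (31.1, 23.1 to 42.7). A maximum at the 5′ side, a lower plateau and a broad second maximum past the annotated 3′ end therefore followed each other. These limits were set after the profile was seen. In the part from 1.5 kb to the end of the run, the untreated level was 3.25 times that of input (1.76 to 6.4).

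**Figure D3:**
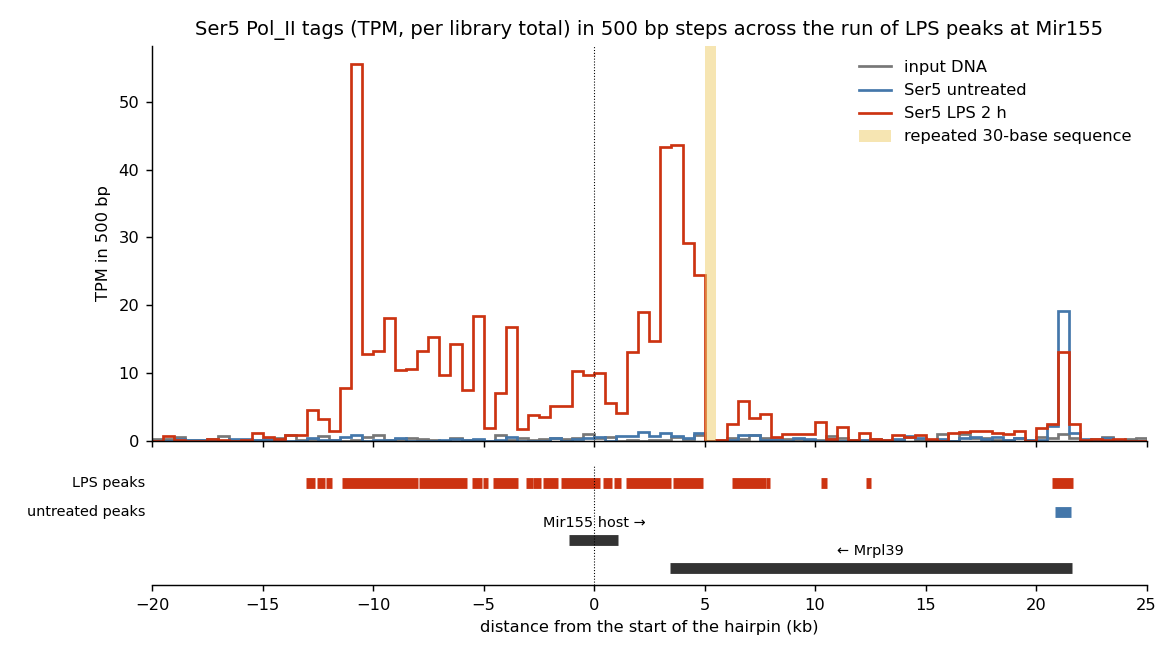
TPM in 500 bp steps (vertical axis) by distance from the hairpin start (horizontal axis, kb) for both Ser5 libraries and input, with deposited peaks and genes below, and steps of repeated 30-base sequence shaded. The LPS library has 347 tags in the step that starts at −11 kb and 271 and 273 in those at 3 and 3.5 kb, and 0 in the shaded step at 5 kb, where no library has a tag.

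More of run 8 lay outside the annotated host than inside. The 11936 bp of the run upstream of the host start had 35 untreated and 1628 LPS tags (56.7, 40.6 to 81.7). The 3842 bp past its end had 51 and 1181 tags (28.2, 21.3 to 38.1). The annotated host itself had 9, 246 and 17 tags, or 0.532, 17.7 and 1.02 TPM per kb, and a ratio of 33.3 (17.3 to 73.7). Of the 65 bp of the hairpin, 1 untreated, 22 LPS and 0 input tags started there. The end of the run at 4.94 kb adjoins 500 bp in which every 30-base sequence is repeated in the genome and in which no library had a tag. Where in or near this stretch the dense Ser5 signal ends can therefore not be read from these tags. The last 500 bp before it had 153 LPS tags. After a partly repeated step with 1 LPS tag, the 500 bp steps from 6 to 8 kb had 15, 37, 21 and 25.

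The non-coding RNA interval that the study lists at this locus, chr16:84702353-84710928, lies wholly upstream of the annotated host. It had 28 untreated, 1471 LPS and 33 input tags, 0.429, 27.4 and 0.511 TPM per kb, and a ratio of 64.0 (44.1 to 96.7).

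Far upstream, runs 1 to 7 held 15 LPS peaks between chr16:84583477 and 84627689. Over these 44213 bp there were 103 untreated, 694 LPS and 233 input tags, a ratio of 8.21 (6.67 to 10.2). All 7 runs were at least 2 times higher after LPS. Over the whole region 10 of the 11 runs with 10 tags were higher, and 0 were lower, against 32.4% and 5.92% of such runs in the genome. Runs are defined by LPS peaks, which favours higher LPS values.

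Run 3, chr16:84604385-84608044, is the induced cluster for which the locus was picked. It had 5 untreated, 131 LPS and 31 input tags, a ratio of 31.9 (13.3 to 100), and its untreated density of 0.179 TPM per kb lay below that of input, 1.12, as it did with scaling to tags outside peaks (0.305, 0.0926 to 0.792). The study's cluster of total Pol_II there, chr16:84603601-84609205, had 7, 160 and 38 tags (27.9, 13.2 to 70.4). The study classed this cluster as induced in cells given LPS and gamma interferon. Its prediction as an enhancer came from histone methylation profiles of unstimulated cells. Run 5 at −98.8 kb was small but dense, with 1, 32 and 4 tags in 228 bp and a ratio of 39.0 (6.51 to 1588). Run 2 had 2 and 19 tags (11.6, 2.79 to 103), and run 7 had 5 and 17 (4.14, 1.47 to 14.4). Run 4 had 0 untreated, 11 LPS and 0 input tags and was at least 4.47-fold higher against the floor, with an exact lower limit of 3.06.

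Of runs 1 to 7, runs 1 and 6 held untreated peaks. Run 1 had 43 untreated, 188 LPS and 31 input tags (5.33, 3.81 to 7.61). Within its 2 untreated peaks there were 29 and 37 tags, a ratio of 1.55 (0.931 to 2.62). In the rest of the run there were 14 and 151 tags, a ratio of 13.1 (7.60 to 24.6). After LPS both parts had nearly the same density, 13.2 and 12.6 TPM per kb, and before it they had 8.50 and 0.956. Run 6 had 27, 154 and 17 tags (6.95, 4.60 to 10.9), with 17 and 35 tags within the untreated peak (2.51, 1.37 to 4.78) and 10 and 119 outside it (14.5, 7.62 to 31.0). The untreated peaks were called on the untreated library, which favours lower ratios inside them.

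An annotated copy of the 7SK RNA gene (ENSMUSG00000084746.1, chr16:84620052-84620373, minus strand) overlaps the upstream end of run 6. 7SK is a small nuclear RNA that holds the elongation kinase P-TEFb inactive, and the genome has many copies of it. This copy had 0 untreated, 16 LPS and 0 input tags, at least 6.50-fold higher against the floor, with an exact lower limit of 4.70. Run 6 and the study's cluster of total Pol_II there, chr16:84620179-84623014, had equal tag counts in each library. The study classed that cluster as induced in cells given LPS and gamma interferon. It predicted the cluster as promoter-like from histone methylation profiles of unstimulated cells.

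Between run 7 and run 8 lay 73642 bp without a deposited peak. They had 44 untreated, 121 LPS and 205 input tags, a ratio of 3.35 (2.36 to 4.85). The LPS density of 0.263 TPM per kb was below that of input, 0.370. With scaling to the tags outside peaks, LPS was instead 1.47 times input (1.16 to 1.84), so the order of LPS and input here depends on the scaling. Over all the bins without a peak, 8 of 10 with enough tags were higher after LPS. The share over all genome bins with 10 tags, those with peaks included, was 13.6%. It was not computed for genome bins without a peak. Of the 8, the bins from −145 to −140 kb and from −20 to −15 kb had intervals that include 1. Outside the peak-bearing part the levels differed less: upstream of run 1 there were 18 and 25 tags (1.69, 0.887 to 3.29), and downstream of Mrpl39 19 and 22 (1.41, 0.729 to 2.76).

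Mrpl39 (ENSMUSG00000022889.7, chr16:84717821-84735987, minus strand) runs towards the Mir155 host, with its start 21602 bp from the hairpin and its end 2334 bp past that of the host. Over the whole gene it had 239 untreated, 966 LPS and 93 input tags, a ratio of 4.93 (4.27 to 5.70), and 5.83% of 17386 coding genes with 10 tags were at least 2 times higher. Its start did not share this. Within 1 kb of it there were 173 untreated, 112 LPS and 13 input tags, a ratio of 0.789 (0.616 to 1.01), and of 12535 starts of coding genes 5.58% were at least 2 times higher and 14.1% lower.

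The 2 ends of Mrpl39 thus differed. The 1509 bp at its 3′ end, which lie in run 8, had 17 and 617 tags, a ratio of 44.2 (27.4 to 76.4). The gene outside run 8 had 222 and 349 tags (1.92, 1.61 to 2.28). Outside runs 8 to 11 it had 206 and 231 (1.37, 1.13 to 1.66), most of the untreated ones in run 12, which is kept here. From the end of run 8 to run 12 there were 59 and 246 tags (5.08, 3.81 to 6.87). In this part lie run 9 with 14 and 95 tags (8.27, 4.69 to 15.7), run 10 with 2 and 15 (9.14, 2.13 to 82.4) and run 11 with 0 and 8 (at least 3.25-fold against the floor, exact lower limit 2.08). The bin from 15 to 20 kb, also in this part and without a peak, had 20 and 57 tags (3.47, 2.06 to 6.10). Run 12 at the start had 167 and 105 tags (0.766, 0.594 to 0.984). As tags carry no direction of transcription, Ser5 of the 2 convergent genes cannot be told apart where their signals meet.

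At the genes beyond, the intervals of the ratios included 1. Jam2 (chr16:84774368-84826173, plus strand) had 150 untreated, 121 LPS and 187 input tags, 0.380, 0.374 and 0.479 TPM per kb. The ratio was 0.983 (0.767 to 1.26). The Ser5 levels were 0.793 (untreated) and 0.780 (LPS) of input, but 1.52 (1.22 to 1.89) and 1.61 (1.27 to 2.03) times input with scaling to tags outside peaks, so their order against input depends on the scaling. Its start had 1 and 5 tags. Gabpa (chr16:84835170-84864024, plus strand) had 323, 298 and 121 tags (1.12, 0.957 to 1.32), and 267 and 237 tags within 1 kb of its start (1.08, 0.904 to 1.29). Scaling to tags outside peaks gave 1.21 (1.03 to 1.42) for the whole gene. Its start overlaps that of Atp5j, which encodes a subunit of the mitochondrial ATP synthase and had 259 and 223 tags (1.05, 0.873 to 1.26), so the Ser5 of this shared promoter cannot be assigned to either gene. An annotated SNORA70 copy had 2, 0 and 3 tags, and a 5S rRNA copy 0 in each library.

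**Figure D4:**
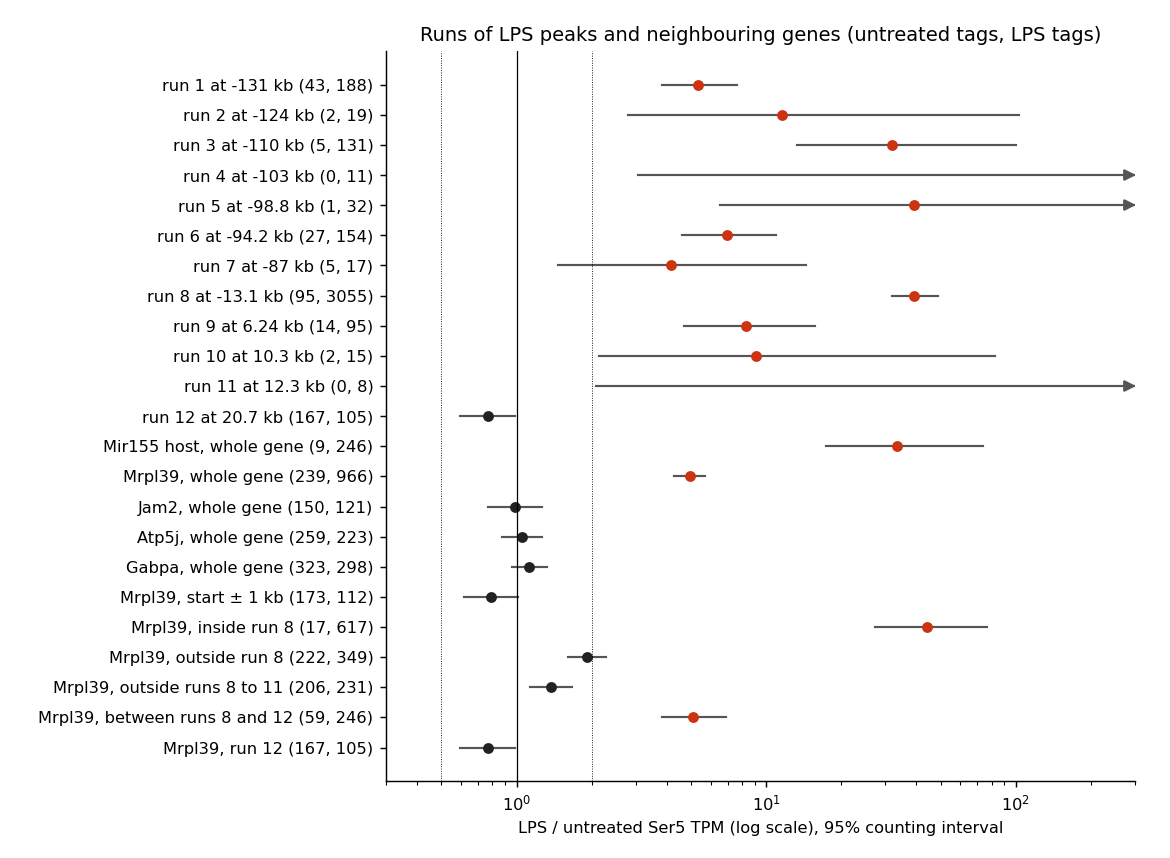
Ratio of LPS to untreated Ser5 TPM (horizontal log axis) for the 12 runs, the neighbouring genes and parts of Mrpl39, with untreated and LPS tags in parentheses. Bars are 95% counting intervals, arrows mark intervals beyond the axis, dotted lines mark 2 times lower and higher, and the ratio passes from 39.2 in run 8 to 0.766 in run 12.

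Among microRNA genes the surroundings of the Mir155 hairpin had the largest ratio. Within 2 kb on each side there were 22 untreated, 409 LPS and 23 input tags (22.7, 14.8 to 36.6). Of 1576 annotated hairpins, 680 had at least 10 tags within this distance. None of the others had a larger ratio, the next was 15 and the median 0.907, while 24 had more LPS tags. In all, 11.5% of the 680 were at least 2 times higher and 17.2% lower.

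A list of 32 microRNA genes of the endotoxin response or of myeloid cells gave 27 that could be placed and 24 with enough tags. Of these, 6 were higher, 2 lower and 16 between, with a median ratio of 1.13. Over the 680 hairpins with enough tags, 11.5% were higher and 17.2% lower, with a median of 0.907. After Mir155 came Mir221, with 131 and 460 tags (4.28, 3.52 to 5.24), and Mir222, with 145 and 502 (4.22, 3.50 to 5.11). They are neighbours on the X chromosome whose windows overlap, and their main products share a seed and act on cell cycle inhibitors. Mir125a, whose window overlaps that of Mir99b, had 82 and 166 tags (2.47, 1.88 to 3.25). Mir21 (2.45) and Mir99b (2.33) were the other members that were higher. Members with overlapping windows share tags, so the 6 are not 6 separate loci.
miR-221-3p: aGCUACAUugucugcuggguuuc
miR-222-3p: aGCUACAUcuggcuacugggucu

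At the other end stood Mir223, the microRNA of granulocytes and monocytes that restrains the inflammasome sensor Nlrp3, with 671 untreated and 73 LPS tags (0.133, 0.103 to 0.169). Mir342 had 29 and 6 (0.252, 0.0856 to 0.618). Mir23b (0.742, 0.598 to 0.917) and Mir27b (0.809, 0.656 to 0.996), neighbours of one cluster, were next. Mir146, the source of miR-146a, which is known as an NF-κB induced brake on Toll-like receptor signalling, had 393 and 468 tags (1.45, 1.27 to 1.66). It was thus already occupied before treatment, at 12.7 TPM per kb against 0.711 around Mir155.
miR-146a-5p: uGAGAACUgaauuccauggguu
miR-223-3p: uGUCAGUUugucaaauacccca

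Of 38 genes that have been reported as targets of miR-155 or as part of its circuit, all had enough tags over the whole gene. Here 6 were higher, 5 lower and 27 between, with a median ratio of 1.04 against 0.874 over coding genes, of which 5.83% were higher and 11.3% lower. The highest were Tnf, the cytokine, with 1640 and 12945 tags (9.62, 9.14 to 10.1), and Peli1, a ubiquitin ligase of Toll-like receptor signalling, with 527 and 3222 (7.45, 6.79 to 8.19). Socs1, which blocks cytokine receptor kinases, had 156 and 525 (4.10, 3.42 to 4.94). Ikbke, a kinase of the interferon response, had 2058 and 4339 (2.57, 2.44 to 2.71).

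Inpp5d, the lipid phosphatase SHIP1, was the lowest of the list. It had 2398 untreated and 225 LPS tags, a ratio of 0.114 (0.0993 to 0.131). Its LPS density was 0.359 TPM per kb against 0.853 for input, or 0.421 of input (0.360 to 0.491). Scaling to tags outside peaks raises LPS over input 2.06-fold, which brings LPS close to input. Whether LPS lies below input here is therefore not settled. Cyr61, a matricellular protein, had 15 untreated, 2 LPS and 13 input tags (0.162, 0.0180 to 0.699). Its untreated level was near that of input by library totals (1.14, 0.507 to 2.61). Fadd, an adaptor of death receptors, had 355 and 114 (0.391, 0.314 to 0.485). Csf1r, the receptor for the growth factor of macrophages, had 3883 and 1431 (0.449, 0.422 to 0.477). Cebpb, a transcription factor of myeloid cells, had 561 and 700 (1.52, 1.36 to 1.70). Socs1 and Inpp5d, both textbook targets, therefore had Ser5 levels that differed in opposite directions. Ser5 reports polymerase on the gene and not the mRNA on which a microRNA acts.

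**Figure D5:**
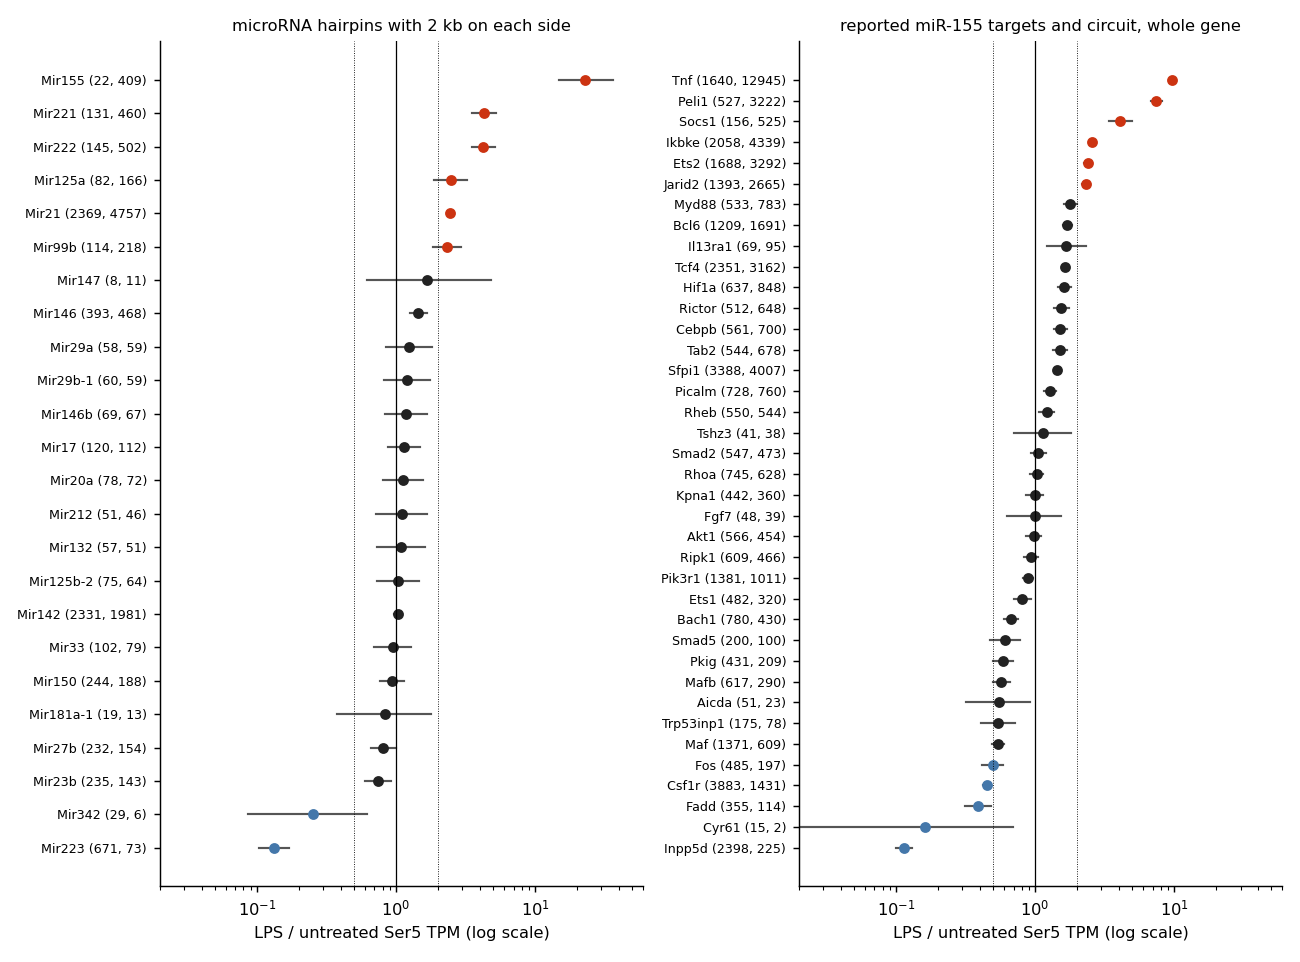
Ratio of LPS to untreated Ser5 TPM (horizontal log axes, bars 95% counting intervals) for microRNA hairpins with 2 kb on each side (left) and for reported targets and circuit genes of miR-155 (right), with untreated and LPS tags in parentheses. Mir155 is highest on the left at 22.7 and Mir223 lowest at 0.133, and on the right Tnf is highest at 9.62 and Inpp5d lowest at 0.114.

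The coding genes nearest to the Mir155 host in their levels before and after LPS, by distance in log2 TPM per kb over the 2 Ser5 libraries, were AW112010, Cd69, Art3, Edn1 and Ptgs2, of 18784 compared. Ptgs2, the inducible cyclooxygenase of prostaglandin synthesis, had 23 and 977 tags (51.8, 34.3 to 82.1). Cd69, an early activation antigen of leukocytes, had 33 and 1046 (38.6, 27.3 to 56.4). Edn1, the precursor of endothelin, had 25 and 592 (28.9, 19.4 to 45), and AW112010 had 11 and 331 (36.7, 20.2 to 74.2). Art3 had 374 and 7763 tags (25.3, 22.8 to 28.1) and spans the chemokine genes Cxcl10 and Cxcl11 on the other strand, from which its tags cannot be separated. With 2 libraries the likeness rests on 1 level before and 1 after treatment.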

How the data were processed

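The 3 libraries were grouped from the sample labels. The authors trimmed 76-base reads, aligned them to mm9 with Bowtie (unique matches with up to 2 mismatches) and called peaks in either Ser5 library with MACS, against input, at a p-value threshold of 1e-05; versions are not given in the sources used here. The deposited tag files give 1 position per tag, duplicates kept, and the score in the deposited peak lists is minus 10 times log10 of the p-value. Tags are 45 (untreated), 30 (LPS) and 36 bases long (input), whereas the study's text gives 30 for untreated and 45 for LPS; the LPS-response genes go with the labels.

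Tags were counted by their 5′ end on chromosomes 1 to 19 and X. Intervals were exact Poisson intervals or, for ratios, exact intervals conditional on the sum. PCR duplicates are not independent molecules. A level was called higher or lower at 2-fold if both libraries together had 10 or more Ser5 tags. A count of 0 was given a floor of 3 tags. No test was possible with 1 library per condition. The gene annotation was GENCODE M1 on NCBIM37, and the microRNA and promoter sequences were RefSeq (GRCm38.p6), placed in mm9 by exact matches. Named features were the members, their neighbours, the extreme bins, the list members of highest and lowest ratio, 4 defining list members (Mir146, Socs1, Inpp5d, Cebpb) and the 5 nearest genes. The members, lists and alternatives were chosen with earlier results of these data known. Of the microRNA list, Mir125b-1, Mirlet7e, Mir9-1, Mir9-3 and Mir24-1 could not be placed. Coordinates and classes of the study's clusters came from its supplementary tables. Functions were tested on simulated data. Python 3.11.15, numpy 2.4.6, pandas 2.3.3, scipy 1.17.1, numba 0.67.0 and matplotlib 3.10.9 were used.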

Additional observations from a re-analysis of the deposited data

How the results depend on the processing

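No paired analysis was possible because each condition had 1 library, and for the same reason no library could be left out. Of 56 recomputed values 39 kept their direction and stayed within their counting interval or within 1.5 times of a count. Counting 1 tag per position and strand, moving tags 75 bp, using only tags whose first 30 bases occur once in the genome, or scaling to tags outside peaks, which raises every ratio 1.08-fold, left the upstream ratio at 14.7 to 16.6, the host at 30.5 to 35.9 and the induced cluster at 24.8 to 30.0. Under the last scaling Gabpa reached 1.21 (1.03 to 1.42), and Ser5 over input rose from 0.358 to 0.685 (untreated) and 5.54 to 11.4 (LPS) upstream, from 0.212 to 0.406 and 0.711 to 1.47 between runs 7 and 8, from 1.15 to 2.19 and 44.9 to 92.5 in run 8, from 0.793 to 1.52 and 0.780 to 1.61 in Jam2, and from 5.09 to 10.5 (LPS) in run 3. The Mrpl39 ratio turned to 0.789 within 1 kb of its start. It was 1.92 outside run 8 and 1.37 outside runs 8 to 11, as these leave out the tags of those runs. Without run 8 the upstream ratio was 6.2. Within 1 kb of its start Jam2 had a ratio of 6.09 on 6 tags. Higher bins were 19 of 23 with 1 tag per position and strand and 21 of 25 with tags moved 75 bp. They were 22 of 25 with outside-peak scaling, with unique 30-base starts or with bins moved by 2.5 kb. With 2.5 kb bins they were 28 of 31, with 10 kb bins 14 of 18. With at least 20 tags they were 17 of 18, against 11.3% of such bins in the genome, and with no minimum 28 of 39. Among bins without a peak they were 8 of 10. Genome shares were not computed for the other alternatives. With scores of at least 100, 1 untreated and 24 LPS peaks remained. The alternatives that leave out runs or bins with peaks, those that take another interval as the host, and the scaling of Ser5 over input were chosen after seeing the data. At this depth 15 of the 40 bins had under 10 tags and were not called.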
